A study of Mus musculus with 2 samples.

Results

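Aerocytes (aCap) are the wide, net-like capillary endothelial cells of the lung alveolus. Here they were taken as the endothelial barcodes of 2 single-cell libraries that carried RNA of at least 3 of the 6 aerocyte markers Ednrb, Fibin, Tbx2, Apln, Rprml and Chst1. A barcode counted as endothelial when it had 1000 to 5000 genes, under 20% mitochondrial unique molecular identifiers (UMIs, each standing for 1 captured RNA molecule), at least 2 of Pecam1, Cdh5, Cldn5 and Egfl7, and no UMI of the leukocyte gene Ptprc. Barcodes with more than 1 of the artery and vein markers Gja5, Bmx, Fbln5, Slc6a2, Car8 and Bst1 were left out. The members were therefore selected on measured marker values. Of 13035 endothelial barcodes in both libraries, 1945 were aerocytes, with 1080 of 6878 in the control library and 865 of 6157 in the metastatic library.

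Both libraries came from the lungs of wild-type (WT) C57BL/6 mice, young adult males by the study's methods, with cells of 2 mice pooled in each. The control mice received PBS in the tail vein. The mice of the metastatic library received 200000 cells of B16-F10, a mouse melanoma line, by the same route, and all lungs were taken 6 h later. Cells were sorted for PECAM1, the endothelial adhesion protein CD31, and run on the 10x Genomics 3′ assay. With 1 library for each group no test between the groups was possible, so every interval given here is a 95% interval for counting error alone, and differences between mice, injections and library preparations cannot be told apart from the treatment. The 6 melanoma markers summed to 21 UMIs in control and 15 UMIs in metastatic aerocytes, with Mlana and Tyr at 0 in both.

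Aerocytes lie against the thinnest part of the alveolar wall and are specialised for gas exchange, while the smaller general capillary cells (gCap) maintain the capillary bed and regulate vascular tone. Aerocytes carry the endothelin receptor EDNRB and the carbonic anhydrase CAR4, depend on VEGFA from the alveolar epithelium, and release apelin, whose receptor APLNR sits on general capillary cells.

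The markers that the rule did not use set the aerocytes apart in both libraries. Car4, which speeds the exchange of carbon dioxide, stood at 1667 counts per 1000000 UMIs (CPM) in control and 1545 CPM in metastatic aerocytes, against 159 and 134 CPM in general capillary barcodes. Kdr, the main VEGF receptor, stood at 1322 and 1518 CPM against 232 and 375 CPM. Emp2, a tetraspan membrane protein, stood at 2600 and 2821 CPM against 536 and 442 CPM. All 12 aerocyte genes outside the rule were higher in aerocyte than in general capillary barcodes in both libraries, by a median of 2.28 log2 units in control and 2.27 in metastatic. Because aerocytes and general capillary barcodes were told apart by markers of this same contrast, these values are a description. The smallest difference of the 12 was that of Cd24a, a small surface glycoprotein, with 183 and 178 CPM against 141 and 129 CPM.

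**Figure D1:**
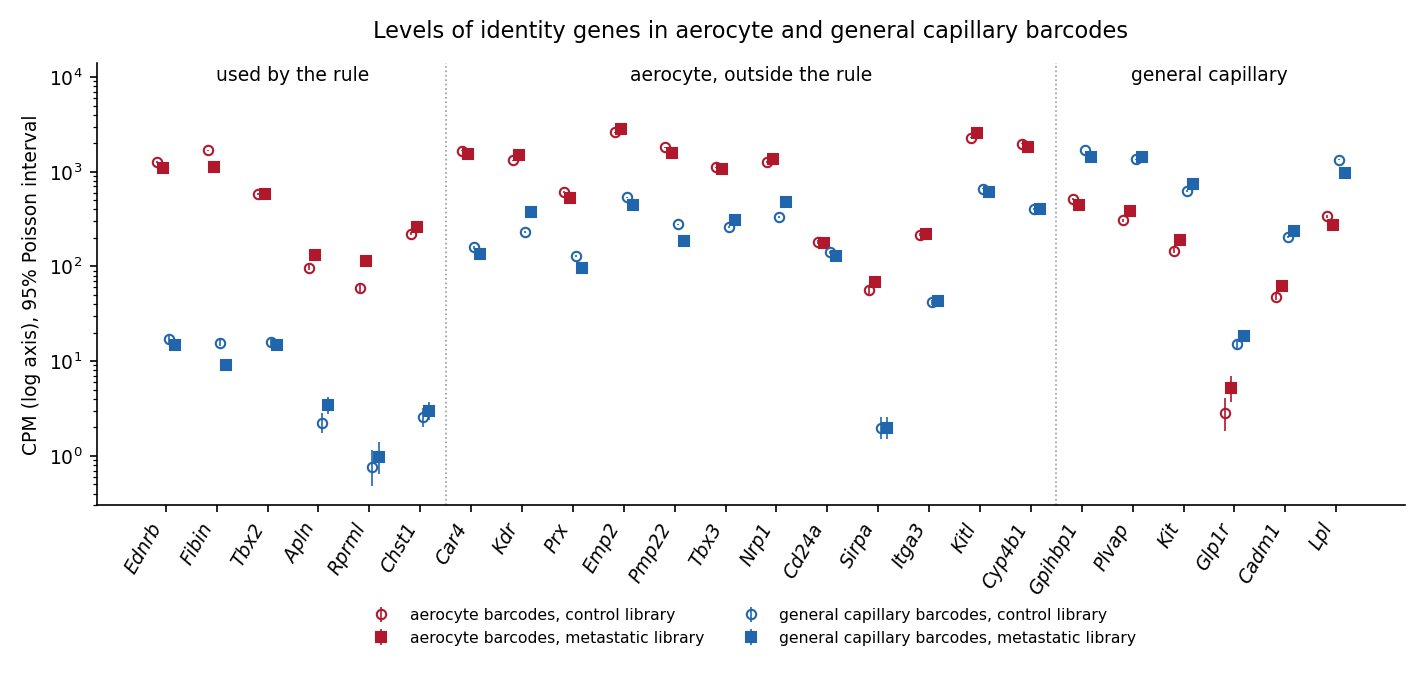
CPM on a log axis, with 95% Poisson intervals, of the 6 markers of the rule, 12 further aerocyte genes and 6 general capillary genes, in aerocyte (red) and general capillary (blue) barcodes of the control (open circles) and metastatic (filled squares) libraries. The first 18 genes lie higher in aerocytes and the last 6 lie higher in general capillary barcodes, in both libraries.

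Outside the lists, the genes highest in aerocytes over general capillary barcodes were led by Ncam1, a neural cell adhesion molecule, which stood at 57.9 and 42.6 CPM in aerocytes and at 0.496 and 0.828 CPM in general capillary barcodes. Xpnpep2, an aminopeptidase that cleaves bradykinin, was 5.60 and 5.62 log2 units higher in control and metastatic aerocytes. Gdf15, a secreted stress cytokine, stood at 52.2 and 43.1 CPM against 1.62 CPM in both libraries. Ccdc184, Dpysl5, Fndc1, Sirpa, Slc5a12, Frrs1, Slc22a23 and Rbfox3 were also among the 12 highest, all at least 4.53 log2 units higher in both libraries. In the other direction the leptin receptor Lepr, the secreted peptide Grp, the hormone Stc1, the chemokine scavenger receptor Ackr3, H2-DMb1 and Tmem252 were lowest, each at least 2.06 log2 units lower in aerocytes. Of 6231 genes, 4.96% were at least 1 log2 unit higher in aerocytes than in general capillary barcodes in both libraries and 2.52% were at least 1 log2 unit lower, but these shares follow from the way the classes were chosen and nothing is read from them.

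Members just inside the rule carried RNA of both capillary types. Control barcodes with 2 markers, just outside the rule, held 267 CPM of Car4 and 1476 CPM of Gpihbp1, the general capillary protein that anchors lipoprotein lipase. Control members with 3 markers held 860 CPM of Car4 and 1138 CPM of Gpihbp1, whereas those with 6 markers held 2230 and 341 CPM. In the metastatic library Gpihbp1 was 1182 CPM at 2 markers, 996 CPM at 3 and 253 CPM at 6. Members with 3 markers made up 21.2% of control and 18.8% of metastatic aerocytes. Leaving out members with more than 2 of the 6 general capillary markers, an alternative chosen after these values were seen, kept 672 control and 529 metastatic aerocytes, and values that depended on it are given below.

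Members had a median of 8096 UMIs in control and 8412 UMIs in metastatic, more than the 5940 and 6233 UMIs of general capillary barcodes. The sums behind the aerocyte values were 9255218 and 7743775 UMIs. No aerocyte barcode occurred in both libraries, although 16 barcodes passed the quality limits in both.

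Aerocytes took a slightly smaller share of the endothelial barcodes in the metastatic library. They made up 15.7% (14.8 to 16.6%, Clopper-Pearson) in control and 14.0% (13.2 to 14.9%) in metastatic, a difference of -1.65 percentage points (-2.88 to -0.42, combined from both intervals). With every barcode thinned to 3000 UMIs before counting markers, which left out 596 and 564 shallower barcodes, the shares were 13.3% (12.5 to 14.2%) and 12.0% (11.1 to 12.8%), and these intervals overlapped. Digestion and sorting can set the share of a cell type, and their part was not tested.

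The 6 markers of the rule themselves differed in direction within the aerocytes. Membership depends on them, so these values are a description. Fibin, a secreted protein, was lower in the metastatic library, with 1686 CPM in control and 1130 CPM in metastatic, a log2 ratio of -0.58 (-0.61 to -0.54). Ednrb was lower by less, with 1262 and 1102 CPM and a ratio of -0.20 (-0.24 to -0.15). Rprml, a homolog of the p53 target reprimo, was higher, with 59.0 and 115 CPM and a ratio of 0.97 (0.81 to 1.12). Apln, the gene of apelin, stood at 97.0 and 133 CPM, a ratio of 0.46 (0.32 to 0.59). Chst1, a sulfotransferase, had a ratio of 0.25 (0.16 to 0.34), and the transcription factor Tbx2 one of 0.02 (-0.04 to 0.07). After thinning to 2000 UMIs, 80.4% (77.9 to 82.7%) of control and 70.5% (67.4 to 73.6%) of metastatic aerocytes had a Fibin UMI, against 96.8 and 91.4% before thinning. Lymphoid barcodes, which should lack the gene, had it in 1 of 52 and 1 of 53 at the same depth. Rprml was found in 9.63% (7.94 to 11.55%) of control and 19.95% (17.3 to 22.8%) of metastatic aerocytes after thinning, against 31.5 and 48.7% before, and in none of these lymphoid barcodes, which allows a share of up to 6.85 and 6.72%. Lymphoid barcodes had median depths of 4761 and 4641 UMIs.

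Members with all 6 markers were more frequent in the metastatic library, at 25.5% against 13.3% of control aerocytes. After thinning to 3000 UMIs these shares were 4.45 and 2.37%. They count the markers that set membership, so they too are a description.

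Outside the markers, the question was which genes of the aerocytes differed between lungs that had met melanoma cells and lungs that had not. Of 6585 genes with at least 20 CPM in either library and at least 100 UMIs over both, 148 genes (2.25%) were higher in metastatic aerocytes by a log2 ratio of at least 0.5 and 95 genes (1.44%) lower by as much. Intervals lay above 0 for 16.8% and below 0 for 13.0% of these genes, and 54.6% had a ratio above 0. The median ratio over these genes was 0.02, and 95% of them lay between -0.41 and 0.48. Because there was 1 library a group, these counts describe sizes and do not count changed genes.

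The highest ratios were those of Cxcl10, Bcl3 and Lrrn3. Cxcl10, a chemokine that draws activated T cells, had the highest ratio, with 7.02 CPM (5.42 to 8.95) in control and 25.4 CPM (22.0 to 29.3) in metastatic, a log2 ratio of 1.86 (1.45 to 2.28), or 1.14 with membership set at 3000 UMIs. Its UMIs came from few cells, 0.463% of control and 2.09% of metastatic aerocytes thinned to 2000 UMIs and 1.11 and 4.51% before thinning. It was found in none of the lymphoid barcodes, which allows up to 6.85 and 6.72%. Bcl3, a nuclear partner of NF-kappa B, stood at 11.6 CPM (9.47 to 14.0) and 33.8 CPM (29.9 to 38.2), a ratio of 1.55 (1.22 to 1.89). Sox4, a transcription factor of developing and activated endothelium, stood at 48.6 and 120 CPM, with a ratio of 1.30 (1.14 to 1.47). Lrrn3, a leucine-rich repeat membrane protein, stood at 10.2 and 28.3 CPM, with a ratio of 1.48 (1.12 to 1.84), whereas general capillary barcodes held only 1.52 and 2.16 CPM. Arhgap20, Neurl3, Pcp4l1, Atp8b1 and Plxnd1, a semaphorin receptor, also stood among the 12 highest, with ratios from 1.21 to 1.46. Those named were low genes, under 50 CPM in both libraries, apart from Sox4 and Nrgn.

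Nrgn and Myl9, also among the 12 highest, were higher together with platelet RNA. Nrgn stood at 26.7 and 66.6 CPM and Myl9, a myosin light chain, at 8.54 and 21.6 CPM, with ratios of 1.32 (1.10 to 1.54) and 1.34 (0.94 to 1.74). Both are also abundant in platelets. The 5 platelet markers Ppbp, Pf4, Itga2b, Gp9 and Gp1bb summed to 68.3 CPM in control and 138 CPM in metastatic aerocytes, carried by 14.0 and 18.8% of the members. Pf4, platelet factor 4, stood at 39.2 and 81.1 CPM, and Gp1bb had 1 UMI in each library. Without the members that carried any platelet marker, the ratio was 0.63 for Nrgn and 0.27 for Myl9, while that of Cxcl10 was 1.69, Bcl3 1.61, Lrrn3 1.54 and Sox4 1.42. Of 148 listed or ranked genes whose interval left out 0, 9 had a ratio that differed by over 1.5 times without these members, among them Nrgn, Myl9, Notch4 at -0.39, Tmem252 at 0.20 and Mt1 at 0.26.

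At the lower end stood Zbtb16, Fam107a and Per1, genes of the glucocorticoid list. Zbtb16, a zinc finger repressor, stood at 350 CPM (338 to 363) in control and 150 CPM (141 to 159) in metastatic, a log2 ratio of -1.23 (-1.32 to -1.13). Fam107a stood at 60.6 and 26.0 CPM, with a ratio of -1.22 (-1.46 to -0.99). The clock gene Per1 stood at 54.0 and 27.4 CPM, with a ratio of -0.98 (-1.22 to -0.75). Sult1a1, a phenol sulfotransferase, stood at 54.1 and 26.9 CPM, Chrm2, a muscarinic acetylcholine receptor, at 29.7 and 14.6 CPM, Myrip at 26.3 and 13.8 CPM, and Nnmt, a nicotinamide methyltransferase, at 20.6 and 10.98 CPM. Pcdh18, a protocadherin, stood at 25.5 and 13.2 CPM in aerocytes, with a ratio of -0.95 (-1.30 to -0.61), but at 3.74 and 4.499 CPM in general capillary barcodes.

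**Figure D2:**
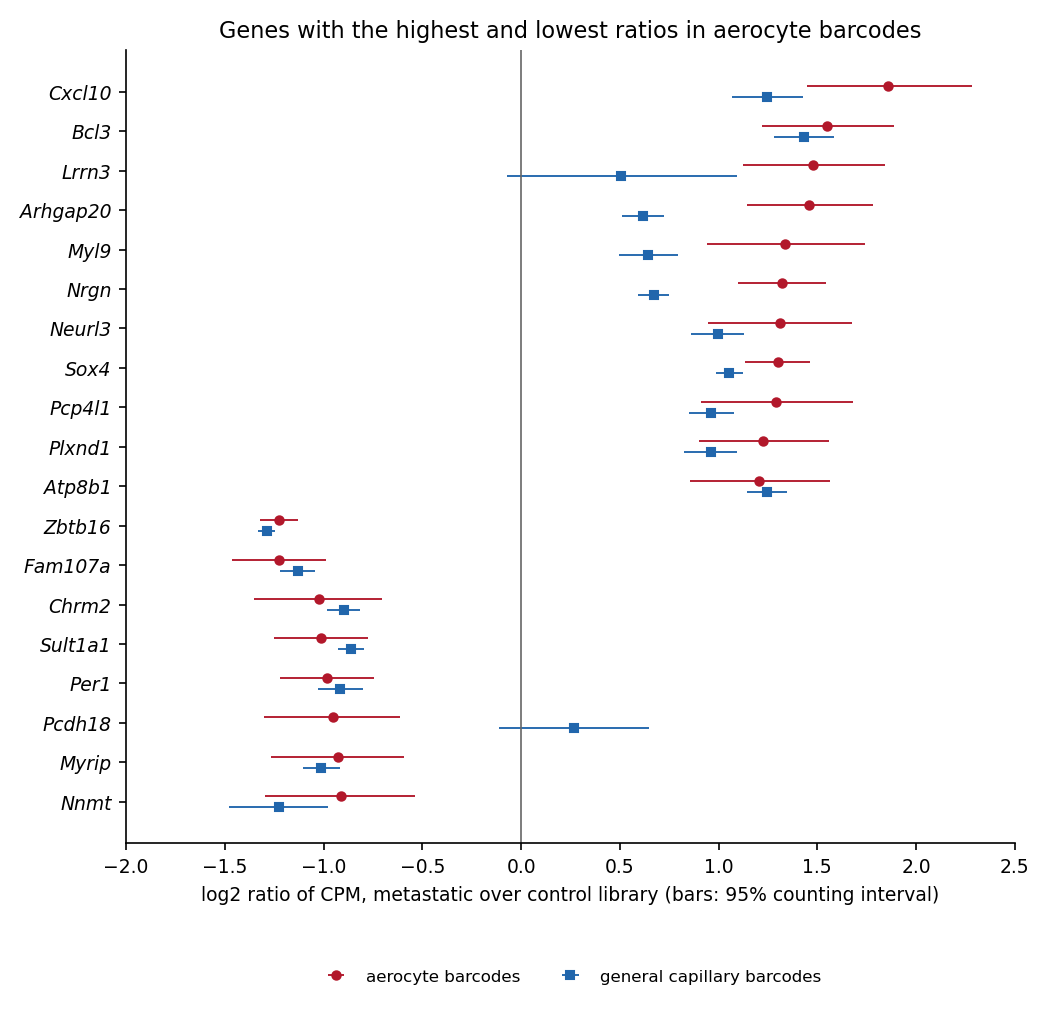
Log2 ratios of CPM, metastatic over control library, with 95% counting intervals, for 11 of the 12 highest and 8 of the 12 lowest ratios in aerocytes (red circles) and the same genes in general capillary barcodes (blue squares). The 3 surfactant genes and Lyz2 are left out. In aerocytes Cxcl10 lies at 1.86 and Zbtb16 at -1.23.

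The remaining 4 of the 12 lowest were Sftpc, Sftpb, Sftpa1 and Lyz2, whose control UMIs lay mostly in 1 barcode each. A single control aerocyte barcode held 6366 of the 7151 UMIs of the 3 surfactant genes, which are made by alveolar type 2 cells. Sftpc stood at 679 CPM in control and 51.8 CPM in metastatic aerocytes, a ratio of -3.71. Beyond the 2 highest barcodes of each library, 661 and 392 UMIs of Sftpc were left. A control barcode likewise held 499 of the 761 UMIs of Lyz2, the lysozyme of macrophages and type 2 cells. Without the member rich in surfactant RNA, the ratios were -0.48 for Sftpc, -0.44 for Sftpa1, 0.06 for Sftpb and 0.08 for Lyz2. The 5 red cell genes were concentrated in the same way, with 9883 of 13471 control and 5723 of 7494 metastatic UMIs in 2 barcodes each.

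Of the glucocorticoid list, 8 of 9 measured genes were lower in metastatic aerocytes with an interval below 0, where 13.0% of all genes were, and 7 of 9 by at least 0.5, where 1.44% were. The median ratio was -0.74, against 0.02 over all genes. Klf9, a transcription factor induced by glucocorticoids, stood at 649 and 390 CPM, with a ratio of -0.74 (-0.80 to -0.67). Tsc22d3, which encodes the anti-inflammatory protein GILZ, stood at 395 and 260 CPM, with a ratio of -0.60 (-0.68 to -0.53). Fkbp5, a chaperone that damps the glucocorticoid receptor, stood at 55.2 and 31.9 CPM, with a ratio of -0.79 (-1.02 to -0.57). Sgk1, a kinase also induced by many other signals, stood at 336 and 348 CPM. The median in general capillary barcodes was -0.91. Among clock genes that peak with Dbp, Per1 was the only one of 10 that passed the filter, and of the opposite phase Clock and Cry1 had ratios of 0.08 (-0.05 to 0.21) and -0.08 (-0.31 to 0.15).

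Antigen presentation genes were higher in metastatic aerocytes. All 11 had ratios above 0, where 54.6% of all genes did, and 10 had intervals above 0, where 16.8% did, with a median of 0.38 and 3 of 11 past 0.5, where 2.25% of all genes were. Cd74, the invariant chain of MHC class II, stood at 49.9 and 94.3 CPM, with a ratio of 0.92 (0.75 to 1.09). H2-Ab1, a class II chain, stood at 29.7 and 48.2 CPM, with a ratio of 0.70 (0.47 to 0.93), or 0.30 without members with more than 2 general capillary markers. The class I heavy chain H2-K1 stood at 1601 and 1913 CPM, with a ratio of 0.26 (0.22 to 0.29), whereas H2-D1 stood at 3094 and 3133 CPM. The class II genes were lower in aerocytes than in general capillary barcodes, where Cd74 stood at 154 and 337 CPM. Lymphoid barcodes held 6421 and 5371 CPM of Cd74. For Cd74 and the class II genes H2-Ab1, H2-Eb1 and H2-Aa, both free RNA subtractions left no finite ratio in aerocytes. The other alternatives gave 0.75 to 1.30 for Cd74, 0.30 to 0.80 for H2-Ab1, 0.52 to 0.91 for H2-Eb1 and 0.38 to 0.51 for H2-Aa.

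Interferon-induced genes had intervals above 0 in 7 of 8 measured members, against 16.8% of all genes, with a median of 0.39. Of the 8, 2 were past 0.5, against 2.25% of all genes. Ifit1, which binds foreign RNA, stood at 27.9 and 48.4 CPM in aerocytes, with a ratio of 0.80 (0.56 to 1.03), whereas general capillary barcodes held 90.5 and 95.3 CPM. Isg15, a ubiquitin-like modifier, stood at 60.7 and 80.1 CPM. The exception was Bst2, an antiviral tether, at 498 and 475 CPM, and it was the only member left at a minimum of 100 CPM, where the list stood at -0.07. Of the JAK-STAT list 8 of 9 measured genes had ratios above 0, against 54.6% of all genes, with a median of 0.22. None was past 0.5, against 2.25% of all genes.

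Of the NF-kappa B list, 6 of 13 genes were measured and 5 of these had intervals above 0, against 16.8% of all genes, with a median of 0.38. Of the 6, 2 were past 0.5, against 2.25% of all genes. Icam1, the adhesion molecule to which leukocytes bind, stood at 471 CPM (457 to 485) and 661 CPM (643 to 679), with a ratio of 0.49 (0.43 to 0.55), and was more abundant in aerocytes than in general capillary barcodes, at 194 and 283 CPM. Its ratio was 0.11 after the planned free RNA subtraction and 0.43 after the version set without members rich in the genes used. Relb, a subunit of NF-kappa B, stood at 24.9 and 46.9 CPM, with a ratio of 0.92 (0.67 to 1.16). Nfkb2 stood at 17.1 and 26.5 CPM. Nfkbia, the inhibitor of NF-kappa B that is itself one of its targets, stood at 922 and 910 CPM. The endothelial selectin gene Sele had no UMI in control and 10 in metastatic aerocytes, in 0.58% of the members, while Vcam1 had 17 and 45 UMIs.

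The promoters of Cxcl10, Icam1 and Bcl3 are shown, chosen after their values were seen, because Cxcl10 and Bcl3 had the 2 highest ratios and Icam1 a high level among NF-kappa B genes. They are RefSeq promoters of GRCm38.p6, from 250 bases before to 50 bases after the start, 5′ to 3′ on the strand of the gene. Capitals mark GGNNTTTCC, a short form of the kappa B motif, and GAAANNGAA, a short form of the interferon response element, searched on both strands. The Cxcl10 promoter, chr5:92348840-92349139 on the minus strand, held 1 of each. That of Icam1, chr9:21015690-21015989 on the plus strand, held 2 kappa B motifs, and that of Bcl3, chr7:19822706-19823005 on the minus strand, held 1. Of 32851 promoters of this length, 5.82% held the kappa B letters and 8.56% the interferon letters. A match describes these letters and does not show binding, and Relb had no entry in the table.
Cxcl10: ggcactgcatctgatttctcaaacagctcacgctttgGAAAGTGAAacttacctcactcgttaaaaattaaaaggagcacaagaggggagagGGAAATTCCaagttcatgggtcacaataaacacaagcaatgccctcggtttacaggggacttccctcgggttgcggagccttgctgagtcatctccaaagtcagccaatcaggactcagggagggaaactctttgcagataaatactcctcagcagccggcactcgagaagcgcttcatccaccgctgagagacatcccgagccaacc
Icam1: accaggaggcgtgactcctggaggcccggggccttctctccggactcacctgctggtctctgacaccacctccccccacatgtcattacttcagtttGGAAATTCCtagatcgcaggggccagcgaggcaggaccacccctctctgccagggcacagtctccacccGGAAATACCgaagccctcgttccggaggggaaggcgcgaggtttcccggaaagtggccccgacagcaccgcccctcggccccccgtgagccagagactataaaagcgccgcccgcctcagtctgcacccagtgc
Bcl3: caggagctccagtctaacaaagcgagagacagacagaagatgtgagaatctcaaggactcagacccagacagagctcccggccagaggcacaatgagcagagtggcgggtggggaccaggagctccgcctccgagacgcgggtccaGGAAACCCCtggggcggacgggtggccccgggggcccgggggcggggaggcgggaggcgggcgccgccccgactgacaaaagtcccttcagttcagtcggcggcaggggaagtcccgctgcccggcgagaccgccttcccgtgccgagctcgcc

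The reactive capillary list was chosen by the study on data that included these libraries and is thus not independent. All 6 of its measured genes had ratios above 0, where 54.6% of all genes did, with a median of 0.30. Intervals lay above 0 for 4 of the 6, where 16.8% of all genes had such intervals. Bcl3 was the only one past 0.5, where 2.25% of all genes were. Pim3, a serine kinase, stood at 209 CPM in both libraries, with a ratio of 0.00 (-0.09 to 0.10), against 239 and 258 CPM in general capillary barcodes. Tmem252 stood at 35.3 and 47.1 CPM and Osmr, the receptor of oncostatin M, at 26.0 and 32.0 CPM. Inhbb, an activin subunit, was under the filter, with 14 UMIs in control and 58 in metastatic aerocytes, or 1.51 and 7.49 CPM against 5.26 and 33.8 CPM in general capillary barcodes. After members with more than 2 general capillary markers were left out, the median of the list was -0.02.

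**Figure D3:**
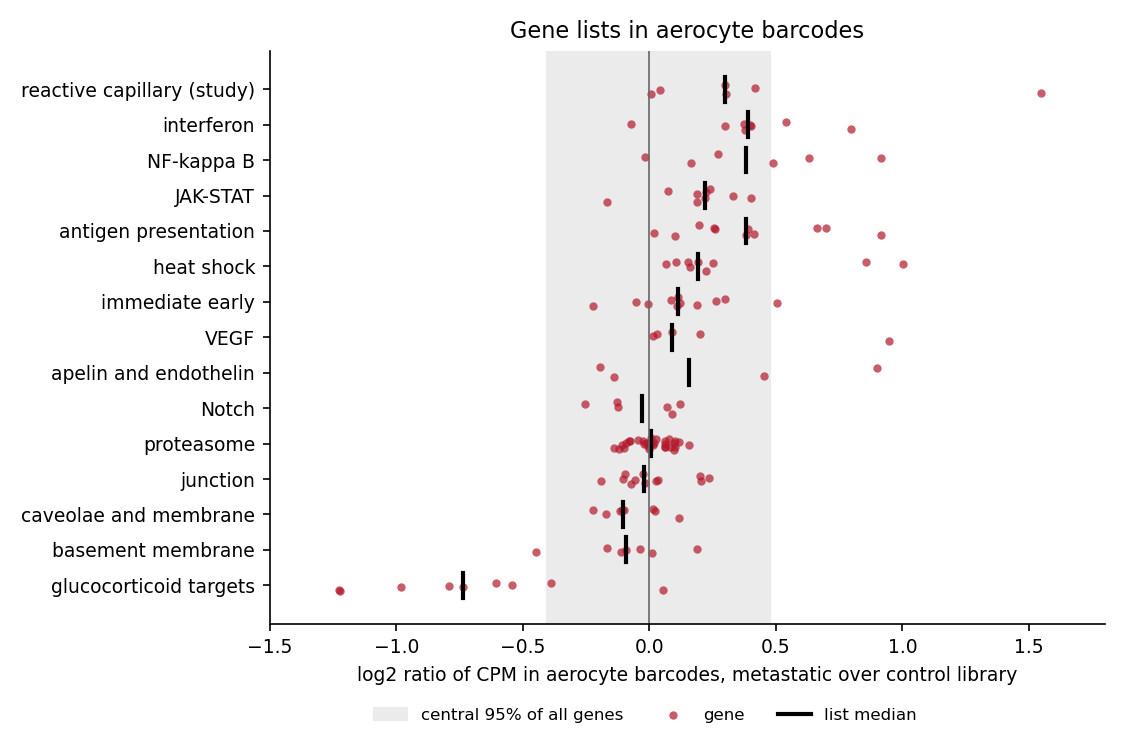
Log2 ratios of CPM in aerocytes, metastatic over control library, of the measured genes of 15 lists, with the median of each list as a black bar and the central 95% of 6585 genes in grey. The glucocorticoid list has its median at -0.74, the proteasome list at 0.01, and the antigen presentation, interferon and NF-kappa B lists at 0.38 to 0.39. Apln and Ednrb in the apelin and endothelin list are markers of the rule.

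Heat shock genes were higher in all 9 measured members, where 54.6% of all genes were, with a median of 0.19. Intervals lay above 0 for 8 of the 9, where 16.8% of all genes had such intervals. The inducible chaperones Hspa1a and Hspa1b stood out, with 61.5 and 111 CPM and with 35.9 and 71.8 CPM, and ratios of 0.85 (0.70 to 1.01) and 1.00 (0.80 to 1.20). Immediate early genes, which also respond to tissue digestion, had a median of 0.11, or 0.03 without members with more than 2 general capillary markers. Atf3, a stress-induced transcription factor, stood at 198 and 281 CPM, with a ratio of 0.50 (0.41 to 0.60), or 0.24 without members with more than 2 general capillary markers, whereas Dusp1, a phosphatase of MAP kinases, was lower at 545 and 467 CPM. The proteasome list, a pathway that the study named in aerocytes, had a median of 0.01 over 31 genes. None was past 0.5 in either direction, where 2.25% of all genes were higher and 1.44% lower by as much. Intervals lay above 0 for 2 and below 0 for 3, where 16.8 and 13.0% of all genes had such intervals. The study ran gene set enrichment on differentially expressed genes of several experiments, whereas these values come from 1 library a group.

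Of the VEGF list 5 of 9 genes were measured, with a median of 0.09. Of the apelin and endothelin list 4 of 6 were measured, with a median of 0.16. This last median includes Apln and Ednrb, markers that set membership, so it is a description. Among the secreted signals of both lists, Vegfa and Edn1 were higher in metastatic aerocytes. Vegfa stood at 39.9 CPM (35.9 to 44.2) and 77.0 CPM (70.9 to 83.4), with a ratio of 0.95 (0.76 to 1.14), against 159 and 283 CPM in general capillary barcodes. Edn1, which encodes the vasoconstrictor endothelin-1, a ligand of EDNRB, stood at 60.1 CPM (55.2 to 65.3) and 112 CPM (105 to 120), with a ratio of 0.90 (0.74 to 1.05), against 289 and 365 CPM. Both were more abundant in general capillary barcodes. Without members with more than 2 general capillary markers the ratios were 0.57 for Vegfa and 0.21 for Edn1. The list medians were then 0.03 for VEGF genes and -0.16 for apelin and endothelin genes. The expression filter was applied again to these smaller sums, so these medians did not rest on the same genes as the main ones. The value of -0.16 was the ratio of Ednrb itself, with Apln at 0.50 and Ece1 at -0.24. Of the receptors, Flt1 stood at 706 and 720 CPM, Flt4 at 37.7 and 38.1 CPM, and Ednra had 3 and 5 UMIs. Aplnr, the apelin receptor, had 72 and 128 UMIs in aerocytes, or 7.78 and 16.5 CPM, against 37.5 and 58.2 CPM in general capillary barcodes. Notch genes had a median of -0.03, with the ligand Dll4 at 91.5 and 95.9 CPM and the receptor Notch4 at a ratio of -0.25 (-0.43 to -0.08).

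Structural genes that passed the filter lay near 0, with none past 0.5 in either direction. Of all genes 2.25% were higher and 1.44% lower by as much. Junction genes had a median of -0.02, from -0.19 for Tjp1, the scaffold ZO-1, at 590 and 517 CPM, to 0.23 for F11r, which encodes JAM-A, at 195 and 229 CPM. Cldn5, the main endothelial claudin, stood at 2864 and 3290 CPM, and Cdh5, or VE-cadherin, at 2302 and 2275 CPM. Caveolar and membrane genes had a median of -0.11, and the caveolar coat gene Cavin2 stood at 2477 and 2122 CPM. Of 12 basement membrane genes 7 were measured, with a median of -0.09. Lamc1, a laminin chain, was the lowest of these, at 163 CPM (155 to 172) and 120 CPM (112 to 128), with a ratio of -0.45 (-0.57 to -0.33).

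The ratios of aerocytes were then set beside those of general capillary barcodes in the same libraries. The classes share their libraries, so no test of the difference was made, and parted intervals describe these 2 libraries. Among 5902 genes measured in both classes, the aerocyte interval lay above the general capillary one for 271 genes and below it for 293.

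Several aerocyte identity genes had ratios nearer 0 in aerocytes than in general capillary barcodes, or of the other sign. Emp2 had a ratio of 0.12 (0.09 to 0.14) in aerocytes and -0.28 (-0.31 to -0.25) in general capillary barcodes. Kitl, the ligand of KIT, which general capillary cells carry, stood at 2293 and 2576 CPM in aerocytes and 660 and 611 CPM in general capillary barcodes, with ratios of 0.17 (0.14 to 0.20) and -0.11 (-0.14 to -0.08). Kdr had a ratio of 0.20 (0.16 to 0.24) against 0.70 (0.65 to 0.74), and its co-receptor Nrp1, at 1268 and 1348 CPM against 332 and 485 CPM, one of 0.09 (0.05 to 0.13) against 0.55 (0.51 to 0.58). Tbx3, a transcription factor, had -0.06 (-0.10 to -0.01) against 0.26 (0.21 to 0.30). Car4 had -0.11 (-0.14 to -0.08) against -0.24 (-0.30 to -0.18), and Pmp22 -0.21 (-0.24 to -0.17) against -0.60 (-0.65 to -0.55). The planned free RNA subtraction took 68.3% of control and 27.6% of metastatic aerocyte UMIs, a share set by a few members rich in the genes used, and gave aerocyte ratios of -0.44 for Emp2, -0.40 for Kitl, -0.35 for Kdr and -0.43 for Nrp1. Without those members the share was 15.2 and 8.54%, and the ratios were 0.030 for Emp2, 0.079 for Kitl, 0.11 for Kdr and 0.0086 for Nrp1. The general capillary ratios were not corrected in this way.

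Among the largest gaps below the general capillary ratio was that of Cxcl16. This chemokine stood at 80.7 and 93.9 CPM in aerocytes and at 28.3 and 61.1 CPM in general capillary barcodes, with ratios of 0.22 (0.07 to 0.37) and 1.11 (0.99 to 1.23). It was higher in control aerocytes than in control general capillary barcodes. Metallothionein Mt1 was low in aerocytes, at 10.4 and 16.7 CPM, and stood at 16.9 and 67.8 CPM in general capillary barcodes. Akap12, a scaffold of protein kinase A, stood at 261 and 391 CPM in aerocytes, with a ratio of 0.59 (0.51 to 0.66) against 1.15 (1.11 to 1.19). With membership set at 3000 UMIs its aerocyte ratio was 0.17, and with at least 4 markers 0.22. Earlier results of these data had put 9 genes highest in general capillary cells. Of these, 6 of 7 measured were past 0.5 in aerocytes, where 2.25% of all genes were. Their medians were 0.71 in aerocytes and 1.12 in general capillary barcodes. The aerocyte median was 0.46 with at least 4 markers and 0.47 with membership set at 3000 UMIs. All 10 genes from the lowest end were below -0.5 in aerocytes too, where 1.44% of all genes were lower by as much. Their medians were -0.86 and -0.93. These genes were chosen on the same libraries and are no independent evidence.

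Large gaps above the general capillary ratio, beside Arhgap20, Myl9, Nrgn and Ifit1, were those of Taf6 and Cyp1a1. Taf6, a subunit of the transcription factor TFIID, stood at 15.8 and 26.1 CPM in aerocytes, with a ratio of 0.73 (0.41 to 1.04), and at 21.3 CPM in both libraries in general capillary barcodes. Cyp1a1, a target of the aryl hydrocarbon receptor, stood at 51.9 and 47.1 CPM in aerocytes and at 48.7 and 27.4 CPM in general capillary barcodes, with ratios of -0.14 (-0.34 to 0.06) and -0.83 (-0.96 to -0.71). Of 7 measured basement membrane genes, 4 had intervals below 0 in aerocytes, where 13.0% of all genes did. The interval of 1 lay above 0, where 16.8% of all genes had such intervals. The list had a median of 0.09 in general capillary barcodes. Nid1, or nidogen-1, stood at 268 and 239 CPM in aerocytes and 68.3 and 87.7 CPM in general capillary barcodes, with ratios of -0.17 (-0.26 to -0.08) and 0.36 (0.28 to 0.45). Lamc1 stood at 29.9 and 30.7 CPM in general capillary barcodes, with a ratio of 0.04 (-0.10 to 0.18).

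**Figure D4:**
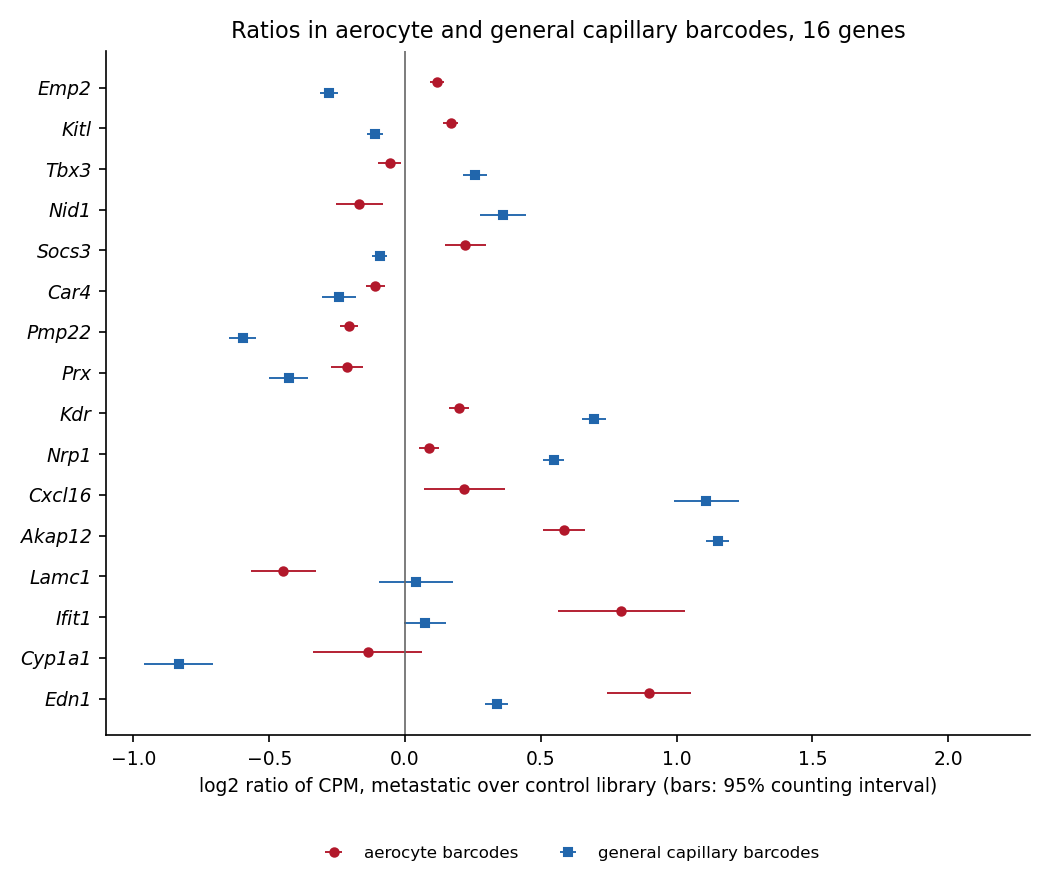
Log2 ratios of CPM, metastatic over control library, with 95% counting intervals, in aerocytes (red circles) and general capillary barcodes (blue squares), for 16 genes chosen after their values were seen because the intervals of the classes did not overlap. Emp2, Kitl and Socs3 are above 0 in aerocytes and below 0 in general capillary barcodes, Tbx3 and Nid1 the reverse, and Cxcl16 lies at 0.22 against 1.11.

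From cell to cell, after thinning to 2000 UMIs, genes were ranked by the smaller of both libraries' variance-to-mean ratios. Hemoglobin genes ranked highest, and Malat1, a nuclear noncoding RNA, came next. Sftpc had a ratio of 418 in control, where 1 barcode held most of its UMIs, and 1.20 in metastatic. The variance of Hbb-bs over its mean was 188 in control and 125 in metastatic, whereas the median over 5292 genes was 1.04. Of thinned aerocytes, 34.1 and 23.0% had an Hbb-bs UMI. Hba-a1, Hba-a2 and Hbb-bt followed Hbb-bs. For Malat1 the ratio was 29.8 and 26.4.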

How the data were processed

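Single-cell RNA of PECAM1-sorted lung cells was analysed for 1 control and 1 metastatic library. The deposited matrices hold UMI counts per gene and barcode, not normalized. The authors made them with Cell Ranger on mm10 (the matrix header gives version 3.1.0). The deposited counts kept every barcode, and the filters of the rule were applied here. Library totals were 67929614 UMIs in control and 64733724 UMIs in metastatic.

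Counts were summed over the barcodes of a class and given as CPM of that sum, with exact Poisson intervals. Log2 ratios carry exact conditional binomial intervals, and shares Clopper-Pearson intervals at 95%. General capillary barcodes had at least 3 of Gpihbp1, Plvap, Kit, Glp1r, Cadm1 and Lpl and at most 1 aerocyte marker. Lymphoid barcodes, with Ptprc and at least 2 lymphocyte genes, served as reference for free RNA. UMIs without a cell of origin cannot be told apart from low expression.

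No doublets were removed from the main values. An alternative left out the 407 and 334 barcodes with the highest doublet scores, among them 10.5 and 10.9% of aerocytes. The other alternatives changed the number of markers, the gene and mitochondrial limits, depth, scaling, free RNA and expression filters, and 4 were added after the data were seen. Intervals and ratios were tested on simulated Poisson counts, the model that the intervals assume. That test does not cover spread between cells, mice or libraries.

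Genes named in the text were those of the lists, the 12 highest and 12 lowest ratios, the 12 highest and 6 lowest over general capillary barcodes, the 6 largest gaps on each side between the classes, and the 5 most variable genes. Predicted gene models, mitochondrial and ribosomal protein genes were left out of these ranks, and 4 of the genes so chosen are not reported here. A gene passed the filter with at least 20 CPM in either library and 100 UMIs over both. The members, lists and rules were chosen with earlier results of these data known. Analyses used Python 3.11.15, NumPy 2.4.6, SciPy 1.17.1, pandas 2.3.3 and, for TMM scaling, edgeR 4.0.16.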

Additional observations from a re-analysis of the deposited data

Results flagged for a closer look

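The 5 aerocyte genes below are listed because their ratio had the opposite sign in general capillary barcodes of the same libraries, with both intervals clear of 0 and a gap of at least 0.25 log2 units. The difference was not tested, since each group has 1 library. The aerocyte ratio was 0.12 for Emp2, 0.17 for Kitl, 0.22 for Socs3, -0.17 for Nid1 and -0.056 for Tbx3. The general capillary ratio was -0.28 for Emp2, -0.11 for Kitl, -0.09 for Socs3, 0.36 for Nid1 and 0.26 for Tbx3. Socs3, a feedback inhibitor of JAK-STAT signalling, stood at 312 and 364 CPM in aerocytes and at 837 and 785 CPM in general capillary barcodes. Without members with more than 2 general capillary markers, the aerocyte ratio was 0.17 for Emp2, 0.19 for Kitl, 0.23 for Socs3, -0.22 for Nid1 and -0.064 for Tbx3. After the planned free RNA subtraction the aerocyte ratios of Emp2 and Kitl were -0.44 and -0.40, and after the version set without members rich in the genes used they were 0.030 and 0.079. The general capillary ratios given here are not corrected for free RNA.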

How the results depend on the processing

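The aerocyte share was lower in the metastatic library in every alternative that recounted members, by 0.97 to 2.11 percentage points. The shares were 21.3 and 19.7% with at least 2 markers, 12.4 and 11.4% with at least 4, 13.3 and 12.0% at 3000 UMIs, 13.2 and 11.6% from 300 genes, 13.5 and 11.4% without platelet RNA and 9.77 and 8.59% without members with more than 2 general capillary markers. The control share was 16.6% from 1500 genes and 14.7% with no artery or vein marker. The number of higher and lower genes was 816 and 498 with no CPM minimum, 33 and 45 at 100 CPM, 2154 and 863 after the planned free RNA subtraction and 319 and 151 after the added one.

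Medians that differed were as follows. At 100 CPM they were -0.071 for interferon, -0.67 for glucocorticoid, 0.023 for reactive capillary and 0.20 for antigen presentation genes. With no CPM minimum they were -0.60 for glucocorticoid, 0.14 for VEGF and 0.46 for apelin and endothelin genes, the last being 0.41 with at least 2 markers. TMM scaling gave 0.15 for heat shock genes. For the genes highest in general capillary cells earlier, the median was 0.46 with at least 4 markers and 0.47 at 3000 UMIs, where basement membrane genes had -0.15.

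Without members with more than 2 general capillary markers, medians were -0.018 for reactive capillary, -0.16 for apelin and endothelin, -0.14 for basement membrane, 0.030 for VEGF, 0.035 for immediate early and 0.26 for antigen presentation genes, and 0.48 for the genes highest in general capillary cells earlier. The reactive capillary, apelin and endothelin, and VEGF medians of this alternative did not rest on the same genes as the main ones. Ratios of the other sign were those of Btg2 at -0.066, Dll1 at -0.66, Egr1 at -0.0093, Hspa8 at -0.031, Sparc at -0.068 and Lyz2 at 0.45. Lyz2 stood at 0.0271 with at least 4 markers, 0.0270 at 3000 UMIs, 0.075 with no artery or vein marker and 0.078 without the member rich in surfactant RNA. Sftpb stood at 0.17 at 3000 UMIs, 0.037 with no artery or vein marker and 0.061 without that member.

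The planned free RNA subtraction took 68.3 and 27.6% of aerocyte UMIs, because a few members hold most of the genes that set it. It gave no finite median for interferon and heat shock genes. Other medians were -0.019 for immediate early, -0.22 for apelin and endothelin, -0.32 for VEGF, -0.40 for junction, -0.51 for basement membrane, -0.53 for aerocyte identity, -0.60 for Notch, -0.62 for caveolar, -1.16 for glucocorticoid, 0.27 for proteasome, 0.63 for JAK-STAT and 4.11 for reactive capillary genes. They were 1.07 and -1.27 for the genes highest and lowest in general capillary cells earlier. Ratios of the other sign were Bst2 2.19, Chst1 -0.31, Cldn5 -0.33, Egr1 -0.071, Emp2 -0.44, F11r -0.23, Frrs1 -0.30, Hes1 -0.14, Ier2 -0.0192, Jun -0.0191, Kdr -0.35, Kitl -0.40, Nrp1 -0.43, Psma2 0.14, Psma6 0.10, Slc22a23 -0.33 and Tap2 -0.14. With the share set without members rich in these genes, 15.2 and 8.54%, medians were -0.090 for junction, -0.15 for basement membrane, -0.19 for caveolar, -0.80 for glucocorticoid, 0.00855 for VEGF, 0.59 for NF-kappa B, 0.86 for interferon and 1.27 for heat shock genes, and 1.21 for the genes highest in general capillary cells earlier.

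Of 148 listed or ranked genes whose interval left out 0, 125 had no ratio of the other sign in any alternative that gave them a finite ratio. The alternatives of the expression filter gave no ratios of single genes, and the free RNA subtractions gave none for some genes. There were 19 alternatives, 4 of which were chosen after seeing the data. No paired analysis was possible because each group has 1 library. The expression filter was applied again to the sums of each alternative, so the measured genes of a list could differ from those behind the main values. Beyond this and the smaller number of genes at 100 CPM, the cause of these differences was not tested. Depth limits genes under 20 CPM, and the number of libraries limits every comparison between the groups.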
